A study of Saccharomyces cerevisiae with 9 samples.

Results

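The late response of yeast to thawing was examined on the 3 of 9 arrays that compared cells 60 min after complete thawing with cells taken before freezing. These arrays were chosen by their labels alone. Every gene with a value on all 3 of them was tested, 2952 of the 5189 genes named on both array designs, and a further 1275 genes had a value on 2 arrays, 862 on 1 and 100 on none. Saccharomyces cerevisiae strain S288C, a common laboratory strain, was grown in 600 ml of rich medium (YPD) at 30 °C to exponential phase. The recovering cells came from 400 ml of culture stored for 1 week at -80 °C without any cryoprotectant. They thawed over 25 min in water held at 30 °C and were incubated further until 100 ml was taken. The cells before freezing came from a 200 ml aliquot that was never frozen, and the other 6 arrays compared cells 15 or 30 min after thawing with such an aliquot. At least 4 µg of mRNA of the recovering cells was copied with Cy5 and of the control cells with Cy3 on every array, so the dye and the condition cannot be told apart.

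Freezing without a cryoprotectant injures yeast through ice crystals, loss of water and damage to membranes and proteins, and thawing returns the surviving cells to warm medium with oxygen. Budding yeast meets many stresses with a common transcriptional programme: the transcription factors Msn2 and Msn4 raise genes of stress defence and carbohydrate storage, Hsf1 raises chaperones, and genes for making ribosomes are turned down while growth pauses. A recovering culture therefore can be read through chaperones, antioxidant enzymes and energy metabolism on one side and through ribosome assembly, translation and biosynthesis on the other.

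All values below are log2 ratios of recovering cells over cells before freezing, as the authors normalised them, and groups of 3 values are given in the order of replicates 1, 2 and 3. The tables do not state the direction of the ratio. It was read from the labels, which name each array for its recovering sample, and with the opposite direction all signs below would be inverted. Means are given with the standard error from a limma fit to all 9 arrays (n = 3 arrays), and a gene rose or fell where its adjusted p was under 0.05. Of 6272 spots per array, 3877 to 5209 held a value at 60 min, replicates 1, 2 and 3 had log2 ratios with an SD of 1.02, 0.980 and 0.674, and across genes the arrays correlated at 0.60 to 0.66. Replicate 1 was hybridised on one array design and replicates 2 and 3 on another. The series describes the arrays of a time as independent biological samples, so p-values measure the spread between such samples, and they leave out the spread of the control cultures if one control served several arrays. Fewer cells able to make a transcript and less of it per cell cannot be told apart in RNA from a whole culture. The 57 lists of genes used below were compiled from textbook knowledge with earlier results of these data known, and each list is described by its counts and median beside those of all genes tested.

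At 60 min 293 genes were at least 2-fold higher than before freezing and 278 at least 2-fold lower, or 9.93% and 9.42% of the 2952 genes tested. Stress proteins, antioxidant enzymes and enzymes of the citric acid cycle were among the genes that rose, and factors that assemble ribosomes and charge tRNAs were among those that fell. Without regard to size, 461 genes rose (15.6%) and 518 fell (17.5%), together 33.2% of those tested, in limma with Benjamini-Hochberg adjustment, and 1289 genes had an unadjusted p under 0.05. The median over all genes tested was -0.06, and the means ran from -3.10 to 4.18. Of the 979 genes called, 957 had 1 sign on all 3 arrays. Their shifts were smaller on replicate 3: the genes that rose had median log2 ratios of 1.27, 1.61 and 0.66, and the genes that fell -1.23, -1.04 and -0.98. The counts rested on replicates 1 and 2 more than on replicate 3: 310 genes rose and 282 fell without replicate 1, 267 and 319 without replicate 2, and 450 and 397 without replicate 3. A total of 151 rising and 151 falling genes passed whichever array was left out.

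**Figure D1:**
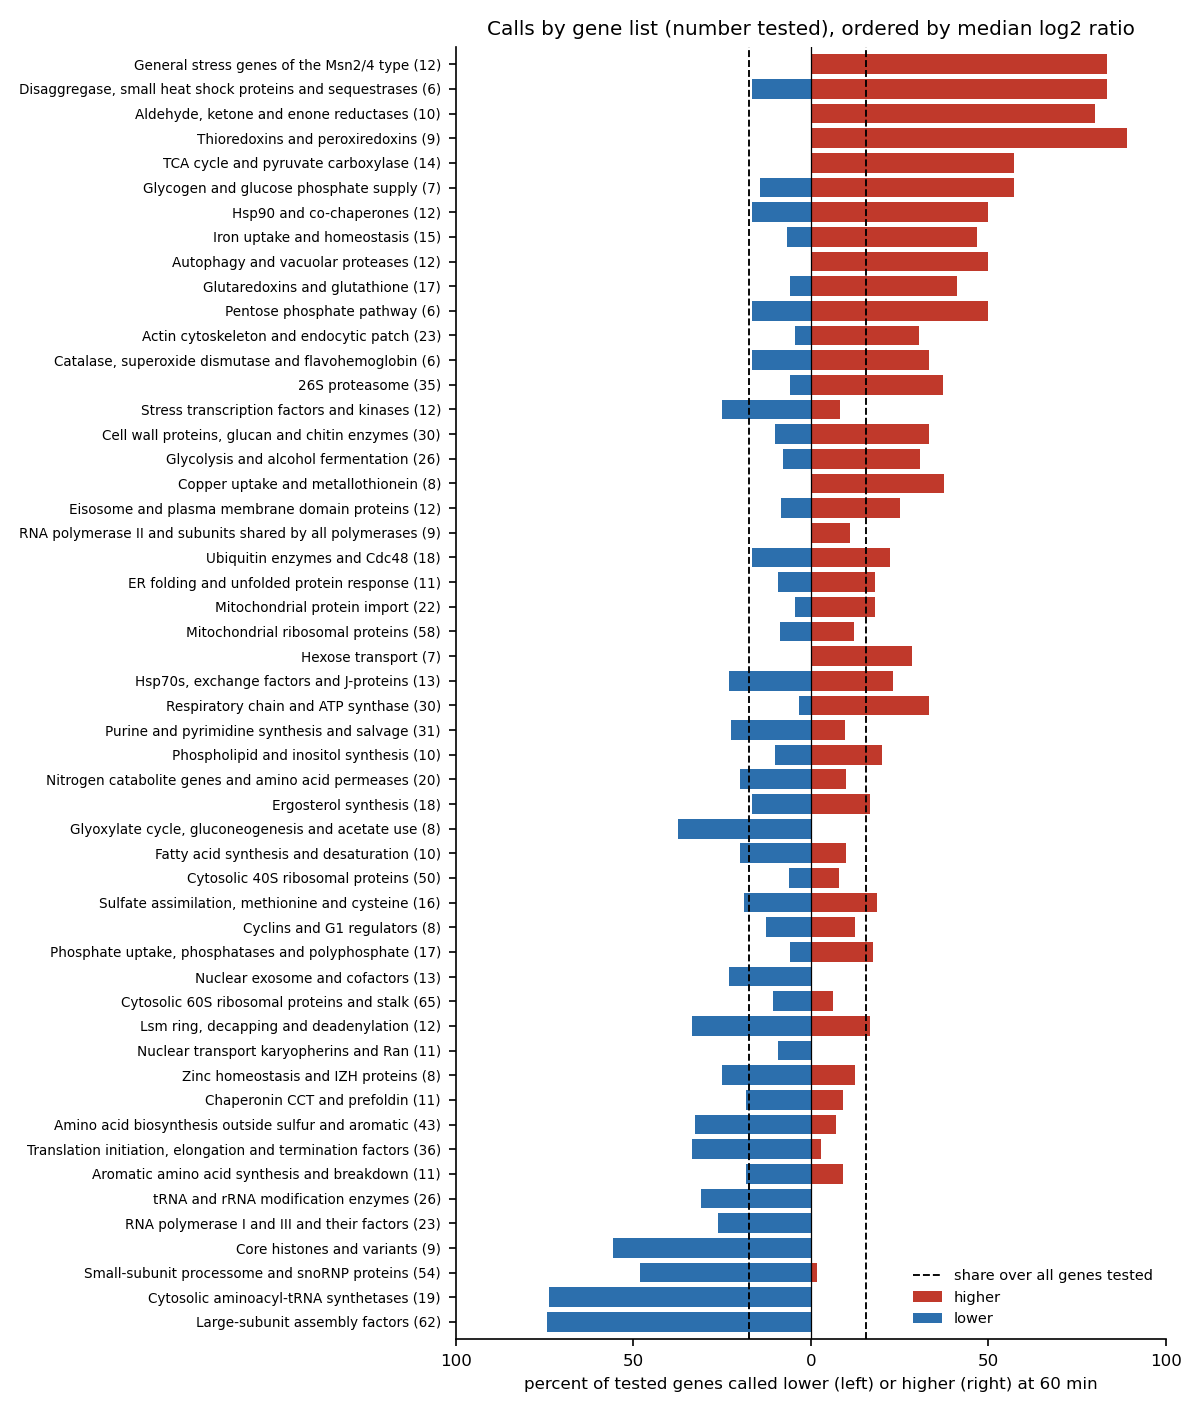
Percent of the tested genes of each list that were called lower (blue, to the left) or higher (red, to the right) at 60 min than before freezing, for the lists with at least 6 tested genes, ordered by the list's median log2 ratio with the number tested in brackets. Dashed lines mark the share over all 2952 genes tested, 15.6% higher and 17.5% lower. The general stress genes, the disaggregase and small heat shock list and the carbonyl reductases stand at the top and the large-subunit assembly factors, tRNA synthetases and small-subunit processome at the bottom.

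The largest rise was that of YGP1 (YNL160W), which encodes a secreted glycoprotein of the cell wall that accumulates when nutrients run short. Its log2 ratios were 4.64, 4.64 and 3.26, all far above 0, and its mean of 4.18 ± 0.30 was 18.1-fold (adjusted p = 1.71e-10). HSP12, a small membrane-associated stress protein, stood at 4.40, 4.34 and 3.34, and HSP26, a small heat shock protein that holds unfolded proteins, at 4.64, 4.11 and 3.21. Both were over 8-fold higher on each array, with means of 4.03 ± 0.34 (adjusted p = 1.34e-09) and 3.99 ± 0.32 (adjusted p = 6.64e-10). SPI1, another cell wall protein of stressed cells, had values of 4.12, 3.80 and 2.00 (mean 3.31 ± 0.33), and SSA4, the stress-inducible Hsp70 chaperone, 3.07, 3.62 and 2.94 (mean 3.21 ± 0.30). SSA4 was close to even across the 3 arrays, while SPI1 was lower on replicate 3. Next came FMP16, a mitochondrial protein (4.10, 2.61 and 1.96), PGM2, the main phosphoglucomutase (4.17, 3.42 and 1.04), and COX5B, the isoform of a cytochrome oxidase subunit that is used at low oxygen (2.98, 3.44 and 1.54). For these 3 genes the value on replicate 3 was the smallest, as it was for MSC1 (3.66, 2.87 and 0.88), the isocitrate dehydrogenase subunit IDH1 (2.76, 3.35 and 1.28) and the cytosolic catalase CTT1 (3.59, 2.61 and 0.99). SAG1, the agglutinin by which cells of the alpha mating type bind their partners, rose with values of 1.93, 3.10 and 2.26 (mean 2.43 ± 0.31, adjusted p = 3.27e-06), highest on replicate 2. The 15 largest rises were completed by PRE6, a subunit of the proteasome core (2.36 ± 0.34), PST2, a flavodoxin-like protein (2.35 ± 0.32), and HSP31, a small stress chaperone (2.31 ± 0.34). Each of the 15 passed whichever array was left out.

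Among the largest falls was ARO5, with log2 ratios of -2.84, -3.07 and -3.24, nearly the same on each array, and a mean 8.29-fold lower (-3.05 ± 0.28, adjusted p = 9.26e-09). PUS7, which converts uridine to pseudouridine in tRNA and other RNAs, had the lowest mean (-3.10 ± 0.56, adjusted p = 1.76e-04), but its values were -6.64, -1.69 and -0.96. The first of these is the lowest value in the tables, and the gene was still called without replicate 1 (adjusted p = 0.0204). IZH4 and IZH2, membrane proteins of a family tied to zinc and sterol metabolism, fell to -2.29, -2.41 and -3.06 (mean -2.59 ± 0.30) and -1.10, -3.16 and -2.69 (mean -2.31 ± 0.33). IZH4 was even across arrays, and IZH2 was least reduced on replicate 1. HEM13, the oxygen-requiring coproporphyrinogen oxidase of heme synthesis, stood at -2.61, -1.84 and -2.14 (mean -2.20 ± 0.32), and ALD5, a mitochondrial aldehyde dehydrogenase, at -2.21, -2.29 and -1.99 (mean -2.16 ± 0.28). Both were well below 0 on each array. Most of the other large falls were in genes for making ribosomes: LRP1, a cofactor of the nuclear exosome (-2.55 ± 0.33), the large-subunit factors RSA3 (-2.48 ± 0.31), DBP3 (-2.33 ± 0.30), NOC2 (-2.14 ± 0.28) and CGR1 (-2.09 ± 0.30), and the small-subunit factor KRR1 (-2.40 ± 0.31). BCP1, which escorts the ribosomal protein Rpl23 (-2.23 ± 0.30), REX4, a putative exonuclease of rRNA processing (-2.14 ± 0.31), and DIA1 (-2.32 ± 0.33) completed the 15. Every one of the 15 passed with each array left out in turn.

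**Figure D2:**
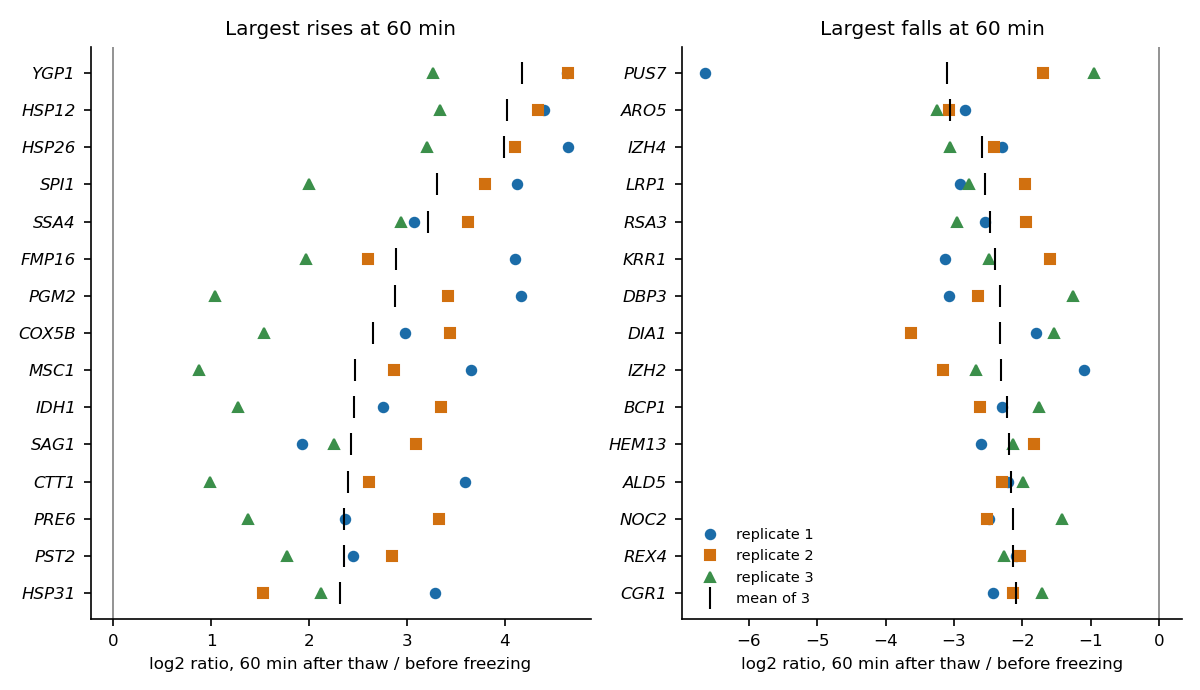
Log2 ratio of recovering cells over cells before freezing for the 15 largest rises (left) and falls (right) at 60 min; circles, squares and triangles are replicates 1, 2 and 3 and the vertical tick is their mean. Replicate 3 has the smallest value for most of the rises, and the value of PUS7 on replicate 1, -6.64, stands far from the other points.

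Most of the genes that build the large ribosomal subunit were lower at 60 min. Of 62 tested assembly factors of the large subunit, 46 fell and 0 rose, with a median of -1.24 (-1.65, -1.18 and -0.88 on the 3 arrays), and 36 were at least 2-fold lower. With 1 array left out at a time, 29 of the 46 passed every time. RSA3, needed for assembly of early large-subunit particles, had values of -2.54, -1.95 and -2.95 (adjusted p = 3.27e-06), and the DEAD-box RNA helicase DBP3 -3.08, -2.64 and -1.26 (adjusted p = 3.75e-06). NOC2, which takes pre-ribosomes out of the nucleolus, stood at -2.48, -2.52 and -1.42, and CGR1, which acts in processing of the large-subunit rRNAs, at -2.43, -2.13 and -1.72. All 4 genes were well below 0 on each array. NOP7, a scaffold of the same particles, was at -2.15, 0.24 and -1.02 and did not pass (adjusted p = 0.0536), with replicate 2 on the other side of 0. MAK21, the partner of NOC2, had no value on replicate 1 and stood at -2.19 and -2.18 on the others.

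In the small subunit the fall was shared by fewer genes. Of 54 tested genes of the processome, the large complex that folds and cuts the small-subunit rRNA precursor, and of the snoRNPs that modify rRNA, 26 fell, 1 rose and 27 did not pass, with a median of -0.76. The array medians differed: -1.40 on replicate 1 against -0.41 and -0.43 on the others, and 12 of the falling genes passed whichever array was left out. KRR1, an assembly factor of the small subunit, had values of -3.13, -1.59 and -2.49 (mean -2.40 ± 0.31), and the RNA helicase HCA4 -2.49, -1.40 and -2.15 (mean -2.01 ± 0.29). NHP2, a core protein of the snoRNPs that guide pseudouridylation, fell to -2.52, -1.20 and -2.07, and BMS1, the GTPase of the processome, to -2.58, -1.53 and -1.11. In these genes every array was more than 2-fold below the control. SNU13, which is shared by snoRNPs and the spliceosome, was the member that rose (0.90, 1.26 and 0.74, mean 0.97 ± 0.27), and the snoRNP methyltransferase NOP1 had a mean of 0.34 ± 0.33 (adjusted p = 0.444). The call of SNU13 was lost when 1 array was left out, with adjusted p up to 0.0858.

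Of the polymerases that make the RNAs of the translation apparatus, the subunits and factors of RNA polymerases I and III had 6 members lower and 0 higher of 23 (median -0.55). This is 26.1% called, where 33.2% of all genes tested were called and 17.5% fell. Of the 6, 2 passed whichever array was left out. RPA190, the largest subunit of polymerase I, stood at -2.17, -1.57 and -0.56 (mean -1.43 ± 0.30, adjusted p = 7.11e-04), and RPC19, shared by polymerases I and III, at -1.81, -1.33 and -1.14 (mean -1.43 ± 0.28). Both were below 0 on all 3 arrays, RPA190 least on replicate 3. RNA polymerase II and the subunits common to all 3 enzymes had 1 gene higher, RPB3 (0.85 ± 0.29), and 0 lower of 9 (median 0.15). That is 11.1% called, against 33.2% of all genes tested. The call of RPB3 was lost when 1 array was left out, with adjusted p up to 0.344.

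Most of the enzymes that charge tRNAs with amino acids were lower as well. Of 19 tested cytosolic aminoacyl-tRNA synthetases and their cofactor, 14 fell and 0 rose, with a median of -0.97 and array medians of -1.22, -0.92 and -1.06. The alanine enzyme ALA1 had values of -2.0, -1.39 and -1.57 (mean -1.65 ± 0.32, adjusted p = 3.43e-04), the valine enzyme VAS1 -1.56, -1.48 and -1.14 and the isoleucine enzyme ILS1 -2.02, -0.80 and -1.24. The lysine enzyme KRS1 was close to even at -1.29, -1.19 and -1.06 (mean -1.18 ± 0.27). The 5 members that did not pass had means from -0.59 (ARC1) to 0.75 (TYS1).

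Translation factors fell in smaller number, 12 of 36, with 1 higher and a median of -0.34. In either direction 36.1% were called, where 33.2% of all genes tested were called and 17.5% fell. NIP1, a subunit of initiation factor eIF3, stood at -2.09, -1.85 and -1.11 (mean -1.68 ± 0.28, adjusted p = 7.86e-05), and DED1, the RNA helicase that opens leader sequences, at -1.92, -1.94 and -0.93 (mean -1.60 ± 0.33). TIF3, the yeast eIF4B, had values of -1.5, -1.5 and -1.25 and TIF11, the yeast eIF1A, -1.09, -1.71 and -1.21. These 4 genes of initiation were below 0 on every array. HYP2, which encodes the translation factor eIF5A, was the one that rose (1.60, 1.26 and 0.09, mean 0.98 ± 0.30), and TIF1, an eIF4A gene, had a mean of -0.05 ± 0.30 (adjusted p = 0.914). The call of HYP2 was lost when 1 array was left out, with adjusted p up to 0.188.

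Few genes for the ribosomal proteins themselves passed. Of the 50 tested proteins of the small subunit 4 rose and 3 fell, and of the 65 of the large subunit 4 rose and 7 fell. The medians were -0.13 and -0.22, and 14.0% and 16.9% of the genes passed in either direction, fewer than the 33.2% of all genes. RPS15, near the decoding centre of the small subunit, rose with values of 1.24, 2.16 and 0.61 (mean 1.34 ± 0.32), and RPS0B with 0.60, 2.53 and 0.77 (mean 1.30 ± 0.34). RPS18A fell with values of -0.79, -1.13 and -1.36 (mean -1.09 ± 0.29), and RPL16B with -1.14, -0.83 and -1.09 (mean -1.02 ± 0.28). Most ribosomal proteins are encoded by a pair of near-identical genes, whose transcripts may bind to each other's spots, and the probe sequences were not analysed here. Of 40 such pairs with both copies tested, 1 had opposite calls: RPL7A, with values of -1.42, -0.17 and -1.0, was lower and RPL7B, with 0.61, 1.77 and 0.78, higher, a pair named after its values were seen. In 9 pairs 1 copy was called, in 1 pair (RPL8A and RPL8B) both rose, and the median difference between the means of the copies was 0.45. The mitochondrial ribosome, which makes a few proteins of the respiratory chain, had 7 proteins higher and 5 lower of 58 (median 0.05), led by MRPL51 (1.24, 3.04 and 1.28, mean 1.85 ± 0.34). With 20.7% called, this too was a smaller share than over all genes. The calls of RPS15, RPS0B, RPL16B, RPL7A, RPL7B, RPL8A and RPL8B were lost when 1 array was left out, with adjusted p up to 0.0788, 0.198, 0.0554, 0.308, 0.158, 0.390 and 0.500 in that order.

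**Figure D3:**
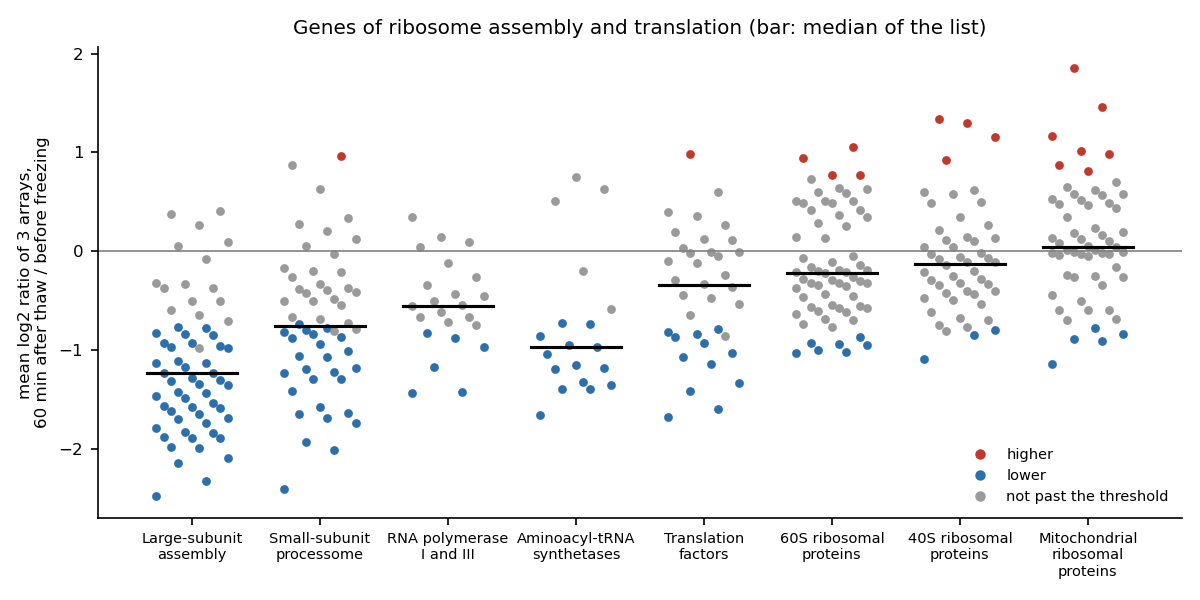
Mean log2 ratio of the 3 arrays at 60 min for each tested gene of 8 lists of ribosome assembly and translation; red and blue points were called higher and lower, grey points did not pass, and the black bar is the list's median. The assembly factors of the large subunit (median -1.24) and the tRNA synthetases (-0.97) lie mostly below 0, and the ribosomal proteins lie around it.

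Among 26 tested enzymes that modify tRNA and rRNA 8 fell and 0 rose (median -0.40), where 17.5% of all genes tested fell. RRP8, a methyltransferase acting on rRNA, had values of -1.65, -1.47 and -1.73 (mean -1.62 ± 0.28), and the pseudouridine synthase PUS1 -1.52, -1.23 and -1.19 (mean -1.31 ± 0.29). Both were even across the arrays, unlike PUS7 above. The nuclear exosome, which trims and destroys nuclear RNA from the 3′ end, had 3 of 13 members lower, a share near that of all genes: LRP1 (-2.91, -1.97 and -2.78), RRP46 (-1.54, -1.85 and -0.64) and RRP45 (-1.22, -1.38 and -0.61). LRP1 was far below 0 on each array, and RRP46 and RRP45 were least reduced on replicate 3. The proteins of cytoplasmic mRNA turnover were split, with 2 of 12 higher and 4 lower (median -0.23), 50% called against 33.2% of all genes tested. LSM2, of the ring that binds mRNA ends, fell (-1.35 ± 0.36), as did PAT1, an activator of decapping (-1.26 ± 0.30), and SCD6, a translation repressor of processing bodies, rose (0.83 ± 0.28). Among 11 karyopherins and Ran proteins, KAP123, the main importer of ribosomal proteins, was the one gene called (-1.45, -1.43 and -0.38, mean -1.09 ± 0.35), a smaller share than over all genes. The calls of RRP45, LSM2, SCD6 and KAP123 were lost when 1 array was left out, with adjusted p up to 0.0609, 0.0729, 0.179 and 0.153 in that order.

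Histone genes, which are transcribed mainly while DNA is replicated, were lower at 60 min or did not pass. Of 9 core histone and variant genes 5 fell and 0 rose, with a median of -0.73. HHT2, for histone H3, stood at -0.81, -1.85 and -2.03 (mean -1.56 ± 0.30), HTA1, for H2A, at -0.77, -1.41 and -2.31 (mean -1.5 ± 0.32), and HTB2, for H2B, at -1.66, -0.88 and -1.64 (mean -1.39 ± 0.30). All were below 0 on each array, HHT2 and HTA1 least on replicate 1. HHF1, for H4, was at -0.70, -1.72 and -1.14 (mean -1.19 ± 0.31), and HTZ1, the variant that marks promoters, at 0.35 ± 0.31 (adjusted p = 0.398). Of 8 tested cyclins and regulators of the G1 phase, 25% were called, against 33.2% of all genes tested. CLN3, the cyclin that starts a new cycle, rose (0.65, 1.36 and 1.26, mean 1.09 ± 0.28) and CLB1, a mitotic cyclin, fell (-2.48, -1.78 and -1.19, mean -1.82 ± 0.29). The G1 cyclin genes CLN1 and CLN2 had a value on 1 and on 2 arrays and were not tested. DDR48, a stress protein that responds to DNA damage, rose (1.95, 2.27 and 0.98, mean 1.73 ± 0.29). The calls of HHF1 and CLN3 were lost when 1 array was left out, with adjusted p up to 0.0852 and 0.0502 in that order.

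Most tested genes on the list of disaggregase, small heat shock proteins and sequestrases rose, and the Hsp70, Hsp90 and chaperonin systems held genes that rose and genes that fell. Of 6 tested genes for the disaggregase, small heat shock proteins and sequestrases 5 rose and 1 fell (median 1.87). HSP12, HSP26 and HSP31, given above, were among those that rose, and HSP12 is also counted among the general stress genes below. HSP104, which pulls proteins out of aggregates, had values of 1.91, 1.58 and 0.76 (mean 1.42 ± 0.29, adjusted p = 6.63e-04). BTN2, which gathers aggregates into deposits, was at 1.43, 0.64 and 0.84 (mean 0.97 ± 0.32), and its relative CUR1 at -0.07, -1.28 and -0.87 (mean -0.74 ± 0.29), the member that was lower. Of the 13 tested Hsp70s, exchange factors and J-proteins 3 rose, 3 fell and 7 did not pass (median 0.01). SSA4 and SSA1, both cytosolic Hsp70s, rose, SSA1 with values of 1.51, 3.10 and 1.21 (mean 1.94 ± 0.33), highest on replicate 2. SSZ1, an Hsp70 of the ribosome that greets nascent chains, fell evenly (-1.39, -1.44 and -1.27, mean -1.36 ± 0.27), and YDJ1, the main cytosolic J-protein, fell too (-0.63, -1.03 and -1.44, mean -1.03 ± 0.30). In the Hsp90 system, which matures kinases and receptors, 6 of 12 genes rose and 2 fell. HCH1, an activator of Hsp90, had values of 1.44, 3.16 and 1.37 (mean 1.99 ± 0.33) and the co-chaperone SBA1 1.69, 2.35 and 0.49 (mean 1.51 ± 0.31), and both were highest on replicate 2. The inducible gene HSP82 stood at 0.73, 1.85 and 0.29 (mean 0.96 ± 0.30) and its constitutive copy HSC82 at 0.48, 0.55 and 0.27 (mean 0.43 ± 0.28, adjusted p = 0.243). The chaperonin CCT and prefoldin, which fold actin and tubulin, had 1 gene higher and 2 lower of 11 (median -0.29). That is 27.3% called, against 33.2% of all genes tested. In mitochondria the folding chamber HSP60 rose (1.57, 2.61 and 0.77, mean 1.65 ± 0.31) and its lid HSP10 too (1.00 ± 0.30), while SSC1, the Hsp70 that drives import, fell (-1.05, -0.49 and -1.37, mean -0.97 ± 0.30). In the endoplasmic reticulum PDI1, which forms disulfide bonds, rose (1.34, 1.49 and 0.95, mean 1.26 ± 0.30), and KAR2, its Hsp70 and the usual marker of the unfolded protein response, was at 0.12, 0.07 and -0.26 (mean -0.02 ± 0.28, adjusted p = 0.956). The calls of BTN2, CUR1, YDJ1, HSP82, HSP10 and SSC1 were lost when 1 array was left out, with adjusted p up to 0.183, 0.387, 0.0878, 0.335, 0.0904 and 0.120 in that order.

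Of 12 tested genes known as targets of Msn2 and Msn4 in general stress, 10 rose and 0 fell (median 1.94), and 7 passed whichever array was left out. Their array medians were 3.59, 1.70 and 0.91, so the ratios on replicate 3 were the smallest. The list was compiled with results of these arrays known and is no independent evidence of its direction. Of 12 tested stress transcription factors and kinases 1 rose and 3 fell, 33.3% called against 33.2% of all genes tested. HSF1, the activator of chaperone genes, rose (0.49, 1.44 and 0.66, mean 0.87 ± 0.29), and MSN4 fell (-2.0, -0.07 and -0.87, mean -0.98 ± 0.32), with replicate 2 near 0. YAP1, the activator of antioxidant genes, fell (-0.82, -0.52 and -1.0, mean -0.78 ± 0.28), and RAS1, a GTPase that signals nutrients, fell too (-0.94 ± 0.28). The calls of HSF1, MSN4, YAP1 and RAS1 were lost when 1 array was left out, with adjusted p up to 0.267, 0.351, 0.153 and 0.124 in that order.

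Most of the thioredoxins, peroxiredoxins and carbonyl reductases rose, and fewer genes of the other redox lists did. Of 9 tested thioredoxins, peroxiredoxins and their reductase 8 rose and 0 fell (median 1.27). TRX1, a cytosolic thioredoxin, had values of 2.14, 3.04 and 1.25 (mean 2.14 ± 0.31), TRX3, the mitochondrial one, 1.38, 3.13 and 0.97 (mean 1.83 ± 0.37), and PRX1, the mitochondrial peroxiredoxin, 2.92, 1.95 and 1.32 (mean 2.06 ± 0.30). AHP1, another peroxiredoxin, stood at 2.10, 1.56 and 0.75, and every array was above 0 for all 4. The member that did not pass was the thioredoxin reductase TRR1 (mean -0.16). Glutaredoxins and enzymes of glutathione had 7 of 17 higher and 1 lower, GRX1 (2.68, 2.83 and 1.10, mean 2.20 ± 0.32) and GTT1, a glutathione transferase (3.06, 1.65 and 0.62, mean 1.78 ± 0.34), being the largest rises and GRX4, a glutaredoxin that signals iron, the fall (-1.03 ± 0.28). GSH1, which makes the first intermediate of glutathione, rose (0.15, 2.33 and 0.97, mean 1.15 ± 0.34), mainly on replicate 2, and the glutathione reductase GLR1 was at 0.38 ± 0.27 (adjusted p = 0.301). Of 10 tested reductases of aldehydes, ketones and enones 8 rose and 0 fell (median 1.57): ARA1 stood at 2.41, 1.90 and 1.44 (mean 1.91 ± 0.28), GRE3, an aldose reductase, at 2.79, 1.58 and 0.99 (mean 1.78 ± 0.34), and GRE2, which reduces methylglyoxal, at 2.55, 0.85 and 1.51 (mean 1.64 ± 0.32). Of 6 tested genes for catalase, superoxide dismutase, flavohemoglobin and their helpers 2 rose, 1 fell and 3 did not pass (median 0.40). Beside CTT1, the superoxide dismutase SOD1 rose (1.99, 1.08 and 0.62, mean 1.23 ± 0.34), and YHB1, the flavohemoglobin that consumes nitric oxide, fell (-1.73, -1.58 and -0.77, mean -1.36 ± 0.29). The calls of GRX4, GSH1 and SOD1 were lost when 1 array was left out, with adjusted p up to 0.0802, 0.327 and 0.137 in that order.

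In carbohydrate stores, PGM2, which turns glucose 6-phosphate towards glycogen and trehalose, rose 7.34-fold (adjusted p = 3.89e-06), and GSY2, the main glycogen synthase, rose with values of 2.49, 2.37 and 0.72 (mean 1.86 ± 0.33). GPH1, which breaks glycogen down, rose as well (2.72, 1.12 and 0.49, mean 1.44 ± 0.32). Of 7 tested genes of glycogen and glucose phosphate supply 4 rose, 1 fell and 2 did not pass (median 0.93), against 15.6% higher and 17.5% lower over all genes. The one that fell was GLG1, the glycogenin that primes glycogen, with values of 0.11, -1.82 and -1.53 and a mean of -1.08, named after its values were seen. TPS2, which completes trehalose, was at 1.38, 2.07 and -0.05 (mean 1.13 ± 0.33), with replicate 3 near 0, and TSL1, a regulatory subunit of the same enzyme, at 2.83 and 1.25 on the 2 arrays that measured it. NTH1, the trehalase, had a mean of 0.66 ± 0.30 (adjusted p = 0.0899), and TPS1 was not analysed here. Of 26 tested genes of glycolysis and fermentation 8 rose and 2 fell, 38.5% called against 33.2% of all genes tested. The array medians were 0.75, 0.13 and -0.29. The last is close to the value that ENO1, ENO2, HXT6 and HXT3 shared on replicate 3, given below. GPM1, phosphoglycerate mutase, stood at 2.79, 2.54 and 0.41 (mean 1.91 ± 0.34), PGK1, phosphoglycerate kinase, at 2.33, 1.92 and 0.36 (mean 1.54 ± 0.32), and the glucokinase GLK1 at 3.15, 1.58 and 0.53 (mean 1.75 ± 0.36). All 3 were lowest on replicate 3, and the enolase and glyceraldehyde phosphate dehydrogenase genes did not pass, for example TDH3 at 0.18, -0.07 and -0.28. In the pentose phosphate pathway, which supplies NADPH, ZWF1, its first enzyme, rose (2.20, 1.94 and 0.57, mean 1.57 ± 0.31), and the second copy of the third enzyme, GND2, too (0.91 ± 0.28). RKI1, ribose phosphate isomerase of the non-oxidative branch, fell (-0.55, -1.22 and -1.31, mean -1.03 ± 0.28). DAK1, which removes dihydroxyacetone, rose (2.01, 1.46 and 0.92, mean 1.46 ± 0.29), and HXT6, a high-affinity hexose carrier, rose on average (2.06, 1.40 and -0.29, mean 1.06 ± 0.33) but not on replicate 3. The calls of GLG1, GPH1, TPS2, GLK1, GND2, RKI1 and HXT6 were lost when 1 array was left out, with adjusted p up to 0.223, 0.0922, 0.236, 0.0605, 0.106, 0.0613 and 0.297 in that order.

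Of 14 tested genes of the citric acid cycle 8 rose, all of them at least 2-fold, 0 fell and 6 did not pass, with a median of 1.19. IDH1 and IDH2, the 2 subunits of isocitrate dehydrogenase, rose together, at 2.76, 3.35 and 1.28 and 2.86, 2.85 and 1.12 (means 2.46 ± 0.32 and 2.28 ± 0.32). MDH1, the mitochondrial malate dehydrogenase, had values of 2.61, 2.13 and 0.98 (mean 1.91 ± 0.31), and SDH2, the iron-sulfur subunit of succinate dehydrogenase, 2.28, 2.14 and 0.49 (mean 1.64 ± 0.32). In each of these genes replicate 3 had the smallest ratio. The respiratory chain and ATP synthase had 10 of 30 genes higher and 1 lower, 36.7% called against 33.2% of all genes tested. The median was -0.02, and 5 of these calls passed whichever array was left out. Beside COX5B the largest rises there were ATP14, a subunit of ATP synthase (1.64, 2.70 and 0.64, mean 1.66 ± 0.35), RIP1, the Rieske iron-sulfur protein (1.66, 2.00 and 0.74, mean 1.47 ± 0.29), and COX12, a subunit of cytochrome oxidase (1.26 ± 0.30). ATP1, the alpha subunit of ATP synthase, was at 0.56, -0.53 and -0.59 (mean -0.19 ± 0.33, adjusted p = 0.691). Of 8 tested genes of the glyoxylate cycle, gluconeogenesis and acetate use none rose and 3 fell: ALD5, the peroxisomal citrate synthase CIT2 (-0.64, -1.46 and -1.84, mean -1.31 ± 0.33), and ADR1, the activator of genes for growth without glucose (-0.94, -1.37 and -0.91, mean -1.08 ± 0.28). In protein import into mitochondria 4 of 22 genes rose and 1 fell, 22.7% called against 33.2% of all genes tested. TIM17, a channel subunit, was the largest rise there (1.21 ± 0.34). The calls of COX12, CIT2, ADR1 and TIM17 were lost when 1 array was left out, with adjusted p up to 0.0996, 0.0561, 0.0598 and 0.158 in that order.

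Several proteins of yeast have 2 genes that are used under different conditions, and the ratios of 30 such pairs were set side by side, 19 of them measured on all 3 arrays. The difference within a pair is one of ratios, not of transcript levels, and no test is given, since an exact sign-flip test of 3 values cannot go below 0.25. CIT1, the mitochondrial citrate synthase, stood at 2.78, 1.82 and 0.05 and CIT2 at -0.64, -1.46 and -1.84, so CIT1 was above CIT2 by 3.42, 3.28 and 1.89. COX5B exceeded COX5A (0.77, -0.54 and -0.40), the isoform used in air, by 2.20, 3.98 and 1.94. In both pairs the 2 genes kept the same order on each array. ADH1, the fermentative alcohol dehydrogenase, was at 1.64, 1.62 and 0.23 and ADH2, the isoform that uses up ethanol, at 0.26, -0.68 and -0.83, lower by 1.38, 2.30 and 1.06. GPD1, the glycerol phosphate dehydrogenase of osmotic stress, was at 1.78, 0.14 and -0.80 and GPD2, that of growth without oxygen, at 0.68, -2.19 and -1.60, and GPD1 was above GPD2 on all 3 arrays. Members of other pairs rose together: SSA4 and SSA1, the thioredoxins TRX1 and TRX2 (1.31, 1.61 and 0.90), the peroxiredoxins TSA1 (1.81, 1.30 and 0.10) and TSA2 (1.63, 1.32 and 0.62), and LSP1 (2.82, 2.81 and 1.02) and PIL1 (2.48, 1.25 and 0.79), the core proteins of the eisosome. The enolase genes ENO1 and ENO2 differed by 0.0022 and 0.0012 on replicates 2 and 3, and such near-identical transcripts may bind to each other's spots. On replicate 3, however, ENO1 and ENO2 stood at -0.2901 and -0.2913, and the hexose carrier genes HXT6 and HXT3 at -0.2900 and -0.2907. The closeness on that array was therefore not particular to the enolase pair, and it was seen on other arrays too. On replicate 1 at 30 min ENO1, HXT6, HYP2, HHT1 and HTA1 stood at 0.895, 0.893, 0.893, 0.892 and 0.895, while ENO2 stood at 0.579. On replicate 3 ENO1, ENO2 and HHF1 stood at 0.199, 0.201 and 0.199 at 30 min, and ENO1, ENO2 and HXT6 at 0.0108 each at 15 min. The cause of this closeness was not tested. ARO9, an aminotransferase that degrades aromatic amino acids, was at 2.39, 1.14 and 0.99, and ARO8, its biosynthetic counterpart, at -1.95 and -1.19 on replicates 2 and 3. PGM1, the minor phosphoglucomutase, was at -1.44 and -0.78 on replicates 2 and 3, where PGM2 was at 3.42 and 1.04. The calls of CIT1, CIT2, ADH1, GPD2, TSA1, TSA2 and PIL1 were lost when 1 array was left out, with adjusted p up to 0.114, 0.0561, 0.101, 0.489, 0.201, 0.0626 and 0.0526 in that order.

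**Figure D4:**
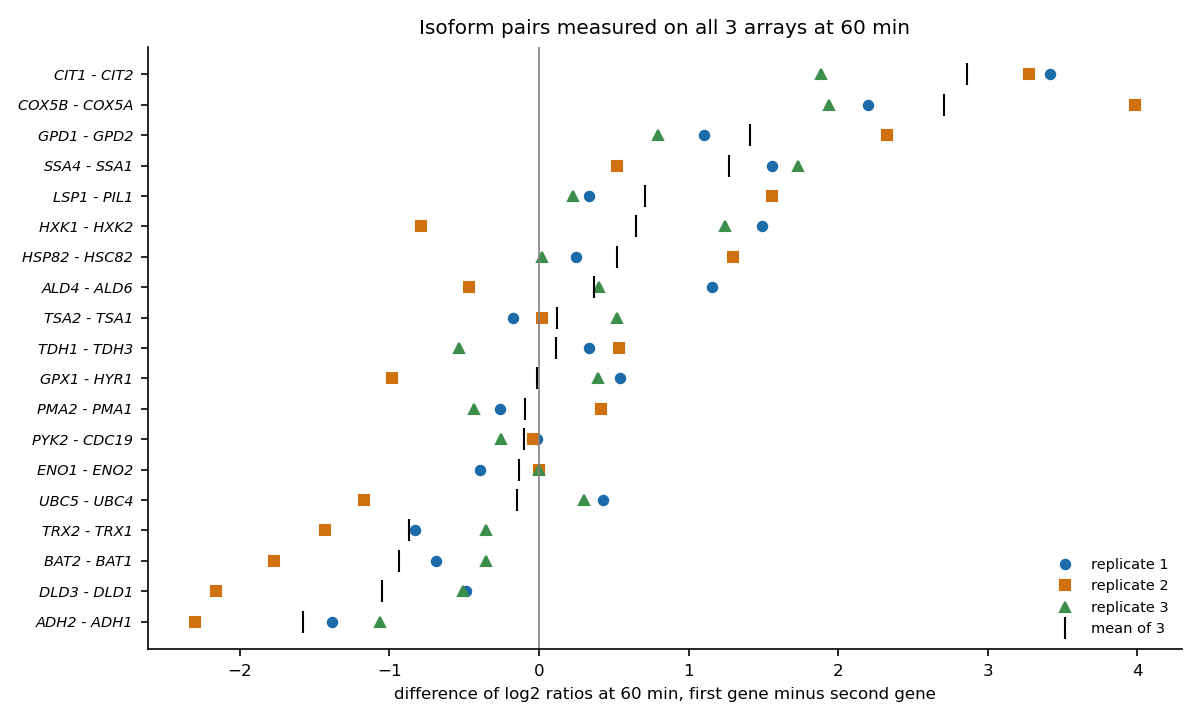
Difference between the log2 ratios of the first and the second gene of 19 pairs at 60 min; circles, squares and triangles are replicates 1, 2 and 3 and the vertical tick is their mean. The pairs CIT1 and CIT2 and COX5B and COX5A lie farthest to the right, and ADH2 and ADH1 farthest to the left.

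The proteasome, which degrades proteins marked with ubiquitin, had most of its core subunits higher and few of its cap subunits called. Of 14 tested subunits of the 20S core particle 9 rose and 0 fell (median 0.97), and of 18 of the 19S regulatory particle 4 rose and 1 fell (median -0.02), a split made after the values were seen. PRE6 stood at 2.37, 3.33 and 1.38 (mean 2.36 ± 0.34, adjusted p = 1.57e-05), PRE2, a catalytic subunit, at 1.68, 2.10 and 0.41 (mean 1.40 ± 0.32), PUP2 at 1.62, 2.43 and 0.46 and the cap subunit RPN12 at 1.53, 1.74 and 0.58 (mean 1.28 ± 0.29). In all 4 the ratio on replicate 3 was the smallest. RPN4, the transcription factor that drives proteasome genes, fell to nearly the same value on each array, -1.05, -1.13 and -1.12 (mean -1.10 ± 0.29, adjusted p = 0.00595). Of 18 tested enzymes of ubiquitin conjugation 4 rose and 3 fell, 38.9% called against 33.2% of all genes tested. Among those that rose were UBC4 (1.02 ± 0.30) and UBC5 (0.87 ± 0.31), which mark abnormal proteins. UBI4, the stress-induced polyubiquitin gene, was at 0.32, 1.12 and 0.58 (mean 0.67 ± 0.28, adjusted p = 0.0607). In the vacuole, where proteins are broken down in bulk, 6 of 12 genes of autophagy and proteolysis rose and 0 fell. The aminopeptidase APE3 had values of 2.43, 2.31 and 1.80 (mean 2.18 ± 0.29), PBI2, an inhibitor of the vacuolar protease B, 2.67, 1.33 and 2.00 (mean 2.00 ± 0.32), and ATG19, a receptor for transport into the vacuole, 1.97, 1.31 and 1.47 (mean 1.58 ± 0.28). PEP4, the protease that activates the others, rose as well (2.02, 0.43 and 0.37, mean 0.94 ± 0.32). The calls of PUP2, UBC4, UBC5 and PEP4 were lost when 1 array was left out, with adjusted p up to 0.0826, 0.219, 0.270 and 0.422 in that order.

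Enzymes that make amino acids fell in larger number than they rose. Outside the sulfur and aromatic families 14 of 43 tested genes fell and 3 rose (median -0.32), 39.5% called against 33.2% of all genes tested. HOM3, which commits aspartate to threonine and methionine, stood at -1.37, -1.14 and -2.26 (mean -1.59 ± 0.34), LYS4 of lysine synthesis at -1.91, -1.0 and -1.57 (mean -1.49 ± 0.29), and ILV2 of branched-chain synthesis at -1.02, -2.32 and -0.96 (mean -1.43 ± 0.31). HOM6, the third enzyme of the same pathway as HOM3, went the other way at 1.30, 1.90 and 0.76 (mean 1.32 ± 0.30), as did AAT2, an aspartate aminotransferase, at 1.56, 1.39 and 0.72 (mean 1.23 ± 0.28). ARG1 of arginine synthesis was even at -1.16, -1.45 and -1.49 (mean -1.37 ± 0.27), and LEU1 of leucine synthesis was at -0.59, 0.62 and -0.01 (mean 0.01 ± 0.29, adjusted p = 0.989). In sulfur metabolism 3 of 16 genes rose and 3 fell, 37.5% called against 33.2% of all genes tested. MET17, which fixes sulfide into homocysteine, rose evenly (2.05, 1.81 and 1.41, mean 1.75 ± 0.28), with MET6, methionine synthase (0.65, 2.68 and 1.23, mean 1.52 ± 0.34), and MET3, which activates sulfate (0.83, 2.03 and 1.04, mean 1.30 ± 0.30). MET4, the activator of these genes, fell (-2.11, -0.57 and -1.49, mean -1.39 ± 0.29). In aromatic metabolism ARO9 rose (mean 1.5 ± 0.30), and ARO3, at the entry to synthesis, fell (-0.95, -0.47 and -1.49, mean -0.97 ± 0.30). ARO10, the decarboxylase that acts after ARO9, was at 4.13 and 2.23 on the 2 arrays that measured it. Of 31 tested genes of purine and pyrimidine synthesis and salvage 3 rose and 7 fell, 32.3% called, near the share over all genes. ADE4, the first step of purine synthesis, stood at -2.24, -0.79 and -1.32 (mean -1.45 ± 0.29), URA1 of pyrimidine synthesis at -1.23, -1.70 and -0.97 (mean -1.30 ± 0.29), and ADE16 at 1.56, 2.81 and 0.62 (mean 1.66 ± 0.34), the largest rise. The calls of ILV2, MET6, MET3 and ARO3 were lost when 1 array was left out, with adjusted p up to 0.0502, 0.0743, 0.0648 and 0.152 in that order.

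Of 15 tested genes of iron uptake and handling 7 rose, 1 fell and 7 did not pass (median 0.81). Of 8 genes of zinc homeostasis and the IZH family 1 rose, 2 fell and 5 did not pass, 37.5% called against 33.2% of all genes tested. IZH2 and IZH4 were the lower ones, as given above, and ZRT2, a low-affinity zinc importer, the higher one (0.48, 1.42 and 0.49, mean 0.80 ± 0.29). FET3, the copper oxidase of high-affinity uptake, had values of 1.33, 2.03 and 1.22 (mean 1.53 ± 0.30), ARN2, a siderophore transporter, 1.53, 2.03 and 0.79 (mean 1.45 ± 0.30), and ISU1, the scaffold on which iron-sulfur clusters are built, 1.52, 2.14 and 0.53 (mean 1.40 ± 0.31). FTR1, the permease that works with FET3, was at -0.06, -0.08 and -0.59 (mean -0.25 ± 0.29, adjusted p = 0.549), apart from its partner on each array, and FET4, a low-affinity importer, fell (-0.83, -0.93 and -0.89, mean -0.88 ± 0.28). FIT2, a cell wall mannoprotein that retains iron carriers, had a value on replicate 3 alone, 2.60. CTR1, the high-affinity copper importer, rose (0.45, 2.52 and 1.32, mean 1.43 ± 0.35), and the metallothionein CUP1-1 was at -0.60 ± 0.29 (adjusted p = 0.104). PHO84, the high-affinity phosphate carrier, rose (1.07, 2.70 and 1.15, mean 1.64 ± 0.33), and PHO90, a low-affinity one, fell (-0.88, -1.16 and -1.09, mean -1.05 ± 0.31). Of 20 tested nitrogen catabolite genes and amino acid permeases 2 rose and 4 fell, 30% called against 33.2% of all genes tested. UGA2 of the breakdown of γ-aminobutyrate was highest (1.93, 1.63 and 0.91, mean 1.49 ± 0.28). The calls of ZRT2, FET4, CTR1 and PHO90 were lost when 1 array was left out, with adjusted p up to 0.362, 0.0812, 0.110 and 0.0691 in that order.

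Lipid genes were called about as often as all genes, and some of the larger changes were among them. Of the tested genes of fatty acid, phospholipid and ergosterol synthesis 30%, 30% and 33.3% were called, against 33.2% of all genes tested. OLE1, the only fatty acid desaturase of yeast, fell with values of -2.41, -1.49 and -2.06 (mean -1.99 ± 0.37, adjusted p = 2.05e-04), and FAA4, which activates imported fatty acids, with -0.91, -2.09 and -2.14 (mean -1.71 ± 0.30). TSC13, the last step of fatty acid elongation, rose (0.99, 2.06 and 1.03, mean 1.36 ± 0.30), and 7 of the 10 genes of the list did not pass. PIS1, which makes phosphatidylinositol, rose 4.23-fold, with values of 1.83, 3.00 and 1.42 (mean 2.08 ± 0.35, adjusted p = 6.59e-05). In ergosterol synthesis, which yields the sterol of fungal membranes, 3 of 18 genes rose and 3 fell, near the 15.6% and 17.5% of all genes tested. IDI1, in the early isoprenoid part, stood at -0.93, -1.71 and -1.75 (mean -1.46 ± 0.30) and ERG6, in the late part, at -0.84, -0.77 and -1.84 (mean -1.15 ± 0.32), while ERG28, a scaffold of the late enzymes, stood at 1.66, 2.18 and 0.39 (mean 1.41 ± 0.32). The calls of ERG6 and ERG28 were lost when 1 array was left out, with adjusted p up to 0.119 and 0.0556 in that order.

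At the cell surface, 10 of 30 genes for cell wall proteins and for glucan and chitin synthesis rose and 3 fell (median 0.27). In either direction 43.3% were called, against 33.2% of all genes tested. NCA3, of the SUN family of wall proteins, had values of 1.84, 2.92 and 1.93 (mean 2.23 ± 0.31), CWP1, a mannoprotein of birth scars, 1.11, 1.58 and 1.27 (mean 1.32 ± 0.29), and GFA1, the first enzyme towards chitin, 1.48, 2.58 and 0.22 (mean 1.43 ± 0.36). GAS3, of a family of glucan-remodelling enzymes, fell (-1.44, -1.20 and -0.75, mean -1.13 ± 0.30), and GAS1, the main enzyme of that family, was at -0.55, -0.87 and 0.14 (adjusted p = 0.252). TIP1 and TIR1, mannoproteins known to be induced by cold, had means of -0.70 ± 0.40 and -0.32 ± 0.29 (adjusted p = 0.187 and 0.416), with replicate 1 above 0 and the others below. TIR4, of the same family, was the 1 gene of the 3 tested on the list of cold-inducible and anaerobic mannoproteins that fell (-0.64, -1.47 and -0.59, mean -0.90 ± 0.30). The eisosome proteins LSP1 and PIL1 rose with means of 2.21 ± 0.33 and 1.51 ± 0.32, and EIS1, which is needed for eisosome assembly, fell (-1.93, -0.18 and -1.24, mean -1.12 ± 0.33). Of 23 genes of actin and the endocytic patch 7 rose and 1 fell, 34.8% called against 33.2% of all genes tested. ARP3 and ARC19, subunits of the complex that nucleates branched actin, had values of 1.28, 2.56 and 1.09 and 1.34, 2.44 and 0.72 (means 1.64 ± 0.30 and 1.5 ± 0.31), and SAC6, the actin bundler fimbrin, 1.59, 2.52 and 0.52 (mean 1.54 ± 0.32). All 3 were highest on replicate 2, and actin itself, ACT1, was at 1.15, 0.10 and -0.54 (mean 0.24 ± 0.36, adjusted p = 0.643). The calls of GFA1, GAS3, TIR4, PIL1 and EIS1 were lost when 1 array was left out, with adjusted p up to 0.142, 0.0637, 0.254, 0.0526 and 0.204 in that order.

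Cells at 60 min were next compared with cells at 30 min, to find what was still changing late. OLE1 was the one gene lower (0.0407% of 2457 tested), and none was higher (0.0%), in limma with Benjamini-Hochberg adjustment, against 131 and 137 genes at an unadjusted p under 0.05. OLE1 stood at 2.48, -0.41 and -0.04 at 30 min and -2.41, -1.49 and -2.06 at 60 min, a difference of -2.66 ± 0.52 (adjusted p = 0.0437), and the groups did not overlap. Its ratio on replicate 1 at 30 min was high, and without that array, without replicate 2 at 30 min or without replicate 1 or 3 at 60 min no gene was lower. Without replicate 2 at 60 min 2 genes were lower, and without replicate 3 at 30 min 3 were lower and 1 higher. Centring each array on its median or setting all arrays to one spread also left none lower. Arrays of the same number at 30 and 60 min deviated together, least in replicate 3 (correlation 0.164). With the replicate block 18 genes were higher (0.733%) and 15 lower (0.611%) at 60 min. The block was fitted to the arrays of every time. It therefore also tied the 15 min arrays, whose numbers were not taken to pair with those at 60 min. In that fit OLE1 differed by -2.66 ± 0.42 (adjusted p = 1.28e-04), followed by IZH4 (-2.0 ± 0.37) and EIS1 (-1.95 ± 0.39) in order of adjusted p, and PIS1 (2.17 ± 0.38, adjusted p = 5.96e-04), RPS15 (1.90 ± 0.38) and RPS0B (1.84 ± 0.39) had the largest rises from 30 to 60 min. Also higher in it were HSP26, SAG1, PST2, NCA3, RPL8A, ATP14, CTR1, PBI2, ADH1 and ERG28, and lower PUS7, CIT2, LRP1, ARO5, HTA1, KRR1, IZH2, SSC1 and FAA4, among the genes named above. The calls of EIS1, CIT2, RPS15, RPS0B, RPL8A, CTR1, ADH1, ERG28 and SSC1 were lost when 1 array was left out, with adjusted p up to 0.204, 0.0561, 0.0788, 0.198, 0.390, 0.110, 0.101, 0.0556 and 0.120 in that order in the comparison of 60 min with the culture before freezing.

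Against 15 min, 45 genes were higher at 60 min (2.41% of 1871 tested) and 63 lower (3.37%), in limma with Benjamini-Hochberg adjustment. HSP26 stood at 0.23, 1.05 and 1.51 at 15 min and 4.64, 4.11 and 3.21 at 60 min, a difference of 3.06 ± 0.45 (adjusted p = 2.01e-04), with no overlap. PIS1 went from -1.51, -0.13 and -0.32 to 1.83, 3.00 and 1.42, from below the control on all 3 arrays to above it on all 3 (2.74 ± 0.49, adjusted p = 0.00240). YGP1 (2.64 ± 0.42), RPS15 (2.23 ± 0.45) and HSP12 (2.12 ± 0.48) were the others of the 5 largest increases. IZH4 went from 1.03, -0.27 and 0.64 to -2.29, -2.41 and -3.06 (-3.06 ± 0.43, adjusted p = 1.36e-04), and CIT2 from 0.12, 2.19 and 1.14 to -0.64, -1.46 and -1.84 (-2.46 ± 0.46, adjusted p = 0.00418). Their means changed from above the control to below it, as did that of OLE1 (0.46, 0.35 and 0.01 at 15 min; -2.26 ± 0.52, adjusted p = 0.0150). LRP1 (-2.32 ± 0.47) and DIA1 (-2.29 ± 0.46) completed the 5 largest decreases. Among other genes named above, RPN4 was higher than the control on each array at 15 min (0.67, 0.48 and 1.11) and lower at 60 min, a difference of -1.85 ± 0.42 (adjusted p = 0.0130), and EIS1 differed by -1.96 ± 0.47 (adjusted p = 0.0169). By list, 8 of 51 large-subunit assembly factors were lower at 60 than at 15 min and 0 higher, and of 50 small-subunit ribosomal proteins 3 were higher and 0 lower. Higher at 60 min were 3 of 8 general stress genes and 3 of 6 of the list of disaggregase and small heat shock proteins, and lower were 2 of 9 histone genes and 3 of 6 of the glyoxylate list. HSP12 is on both of the lists with higher genes and is counted in each. Without replicate 1 at 15 min the counts were 11 higher and 22 lower, without replicate 2 at 15 min 18 and 19, without replicate 3 at 15 min 20 and 43, and without replicates 1, 2 and 3 at 60 min 15 and 29, 12 and 37, and 71 and 44. The counts changed with the scaling of the arrays. With every array set to the same median absolute deviation, 0 genes were higher than at 15 min and 1 lower, and against the culture before freezing 260 rose and 277 fell. A wider response and a wider array scale cannot be told apart by this setting. The calls of RPS15, CIT2 and EIS1 were lost when 1 array was left out, with adjusted p up to 0.0788, 0.0561 and 0.204 in that order in the comparison of 60 min with the culture before freezing.

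List medians at the 3 times, taken over the genes with a value on all 9 arrays, show when each group stood where it did at 60 min. The 45 large-subunit factors had medians of -0.61 at 15 min, -0.90 at 30 min and -1.18 at 60 min, and the 13 tRNA synthetases -0.30, -0.70 and -1.04. The 7 histone genes stood at 0.04, 0.03 and -0.73, near the control until 30 min and below it at 60 min. Their median at 30 min was the mean of HTA1. On replicate 1 at 30 min HTA1 stood at 0.895, near the value that other genes such as ENO1 and HXT6 shared on that array. For the 7 thioredoxin and peroxiredoxin genes the medians were 0.79, 0.66 and 1.47, and for the 8 genes of the citric acid cycle 0.32, 0.33 and 0.85. The 30 proteasome genes were at 0.15, 0.45 and 0.42. Over all 1657 genes with 9 values the medians were -0.09, -0.09 and -0.03. These medians are descriptions, and the differences between times were tested gene by gene as given above. They were not adjusted for the spread of the arrays, which differed between times. The SD of the log2 ratios on replicates 1, 2 and 3 was 0.634, 0.798 and 0.440 at 15 min. It was 0.733, 0.618 and 0.555 at 30 min and 1.02, 0.980 and 0.674 at 60 min. How far the course of the medians follows this spread was not tested.

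**Figure D5:**
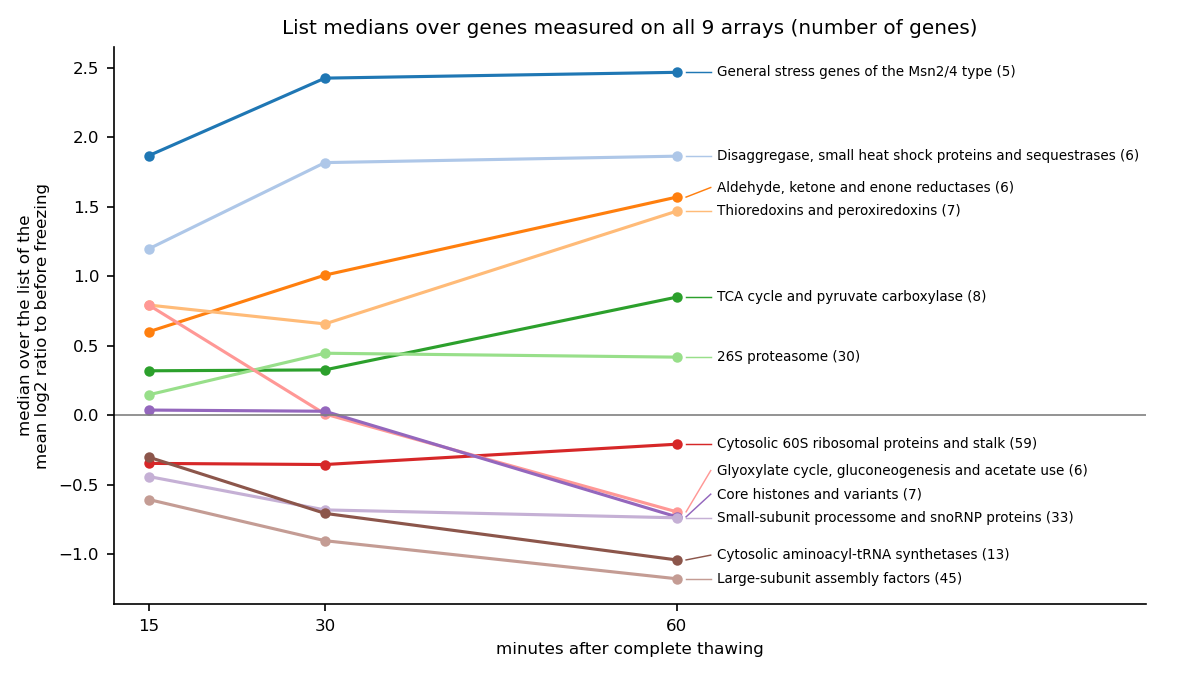
Median over the genes of 12 lists of the mean log2 ratio to the culture before freezing at 15, 30 and 60 min after thawing, over genes measured on all 9 arrays (their number in brackets). The large-subunit assembly factors and tRNA synthetases lie lowest at 60 min, and the histone genes leave 0 between 30 and 60 min. The medians are not adjusted for the spread of the arrays, which was widest at 60 min in each replicate number.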

How the data were processed

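Cy5-labelled cDNA of recovering cells and Cy3-labelled cDNA of cells before freezing were hybridised to arrays of 6272 spots. The authors deposited log2 ratios, normalised by LOWESS with unflagged spots per the labels' protocols; scanner intensities were not used here. The lowest value is the log2 of 0.01.

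Spots of a gene were averaged, and 5185 of 5189 genes matched RefSeq names. All 9 arrays were fitted in limma 3.58.1 (R 4.3.3) with 1 mean per time, and the mean at 60 min was tested against 0, two-sided, over genes with a value on all 3 arrays, with Benjamini-Hochberg adjustment. Any spread among control cultures is left out. On simulated data with 200 of 2952 genes changed, 92% of log2 changes of 2 and 44% of changes of 1 were recovered, with 6 false calls. Whether these figures hold for arrays of unequal spread, or with deviations shared between arrays, was not tested. The number of arrays limits the precision.

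Deviations from the group means of arrays with the same replicate number correlated at 0.440, 0.377 and 0.164 between 30 and 60 min. The numbers were therefore taken to pair those arrays. Between 15 and 60 min the correlations were 0.016, 0.487 and 0.342, and there the numbers were not taken to pair. The limit was a correlation of 0.1, which replicate 1 missed between 15 and 60 min. The block fit nonetheless covered the arrays of every time.

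The members and lists were chosen with earlier results of these data known. Named were the 15 largest changes in each direction, up to 4 members per list and direction with 1 sign on all arrays, fixed anchors and isoform pairs, and the 5 largest differences between times. Any other gene was chosen after its values were seen. Alternatives were leaving out each array, the 60 min arrays alone, the replicate block, array design as a term, centring, equal spread, array weights, robust eBayes, the lowest value as missing, genes on at least 2 arrays, and spots kept apart. Promoter and probe sequences were not used here.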

Additional observations from a re-analysis of the deposited data

Results flagged for a closer look

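Ratios at 60 min differed from those at 15 min for 45 genes that were higher and 63 that were lower, by the limma contrast between the times. Among the 5 largest increases the differences in log2 ratio were 3.06 for HSP26, 2.74 for PIS1, 2.64 for YGP1, 2.23 for RPS15 and 2.12 for HSP12. Among the 5 largest decreases they were -3.06 for IZH4, -2.46 for CIT2, -2.32 for LRP1, -2.29 for DIA1 and -2.26 for OLE1. Between 60 and 30 min OLE1 differed by -2.66. These differences were picked out because the contrast between times passed its threshold.

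Of 136 spots with values on all 3 arrays at 60 min but no gene name, 11 were higher and 18 lower than before freezing, or 21.3% called. They enter no comparison above, and what they measure was not analysed here.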

How the results depend on the processing

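No gene called at 60 min reversed its sign under any alternative run by gene (spots kept apart were only counted), and 501 to 979 of the 979 calls were made again in the same direction. Leaving out 1 array at a time gave 267 to 450 higher and 282 to 397 lower genes. With every array set to the same median absolute deviation the counts were 260 and 277, which is the setting with the smallest counts. All other settings stayed within 1.5 times of the main counts, from 335 to 575 higher and from 372 to 655 lower, the replicate block giving 575 and 655. Against the culture before freezing the block takes the spread between replicate numbers out of the error. Its counts there, and the 979 calls made again with it, are therefore no check on the main result. Against 30 min, leaving out 1 array gave 0 to 1 higher and 0 to 3 lower genes, the replicate block 18 and 15, centring or equal spread 0 lower, and array weights 2 lower. Against 15 min, leaving out 1 array gave 11 to 71 higher and 19 to 44 lower, the replicate block 131 and 160, array weights 23 and 40, and equal spread 0 and 1. The causes of these shifts were not tested. Between 15 and 60 min the numbers were not taken to pair the arrays, so the block is no correction there. Of 684 list medians recomputed, 653 moved by less than the spread between replicates, and the sign changed in 17 of 57 lists, all with a median within 0.25 of 0.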

Other observations

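Neighbouring genes on a chromosome were compared by the orientation in which they are transcribed. Over all 1529 pairs with both genes tested, 2.81% had both genes higher, 3.53% both lower and 3.66% opposite calls, and the means correlated at 0.10. In 378 divergent pairs with both genes tested, 12 had both genes higher (3.17%), 18 both lower (4.76%) and 12 opposite calls (3.17%). The means of the divergent pairs correlated at 0.19 across pairs. In 694 tandem pairs the numbers were 17, 24 and 34 (2.45%, 3.46% and 4.90%) with a correlation of 0.05. In 457 convergent pairs they were 14, 12 and 10 (3.06%, 2.63% and 2.19%) with a correlation of 0.12. Pairs share arrays and can share a gene, so these values are descriptions without a test.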
